A study of Mus musculus with 2 samples.

Results

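The endocytic protein uptake receptors are 5 genes, taken by name: Cubn, Amn and Lrp2, which make the large scavenging receptors of absorptive epithelia, Dab2, their clathrin adaptor, and Fcgrt, the neonatal Fc receptor. They are 5 of the 43346 genes listed for each library. The rule names the genes and uses no measured value, though they were proposed with earlier results of these data known. The study measured total RNA from mouse intestine at embryonic day 14.5 in 2 libraries, which form its only group. The strain is B6NCrl, no genetic alteration or treatment is named, and each library was made from 10 ng of RNA longer than 200 nt. The labels describe each library as a single intestine but give the sex as pooled male and female. Both carry 1 donor record and identical numbers for pup and dam, yet replicate 1 was collected on day 17 of the month and replicate 2 on day 15. It cannot be read from the labels how far the replicates are separate animals, so the spread between them may be partly technical. With 1 group there was no comparison of conditions, and the values describe levels and their spread over n = 2.

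Absorptive epithelia take up protein through receptors that gather in clathrin-coated pits. Cubilin, encoded by Cubn, has no membrane span of its own and is held at the surface by amnionless, the product of Amn. The pair binds the vitamin B12 carrier intrinsic factor, and also albumin, transferrin and other cargo. Megalin, encoded by Lrp2, is a giant member of the LDL receptor family that binds many of the same ligands. Dab2 links the tails of such receptors to clathrin and the AP-2 adaptor complex. The neonatal Fc receptor pairs with beta-2 microglobulin, holds IgG in acidic endosomes, and in suckling rodents carries maternal IgG across the gut wall. Protein uptake by these routes is best known in the kidney tubule, the yolk sac and the suckling ileum.

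The coding sequences below show the tail signals that Dab2 and related adaptors read, since these tie the receptors to the adaptor. Each line gives the reference coding DNA, from GENCODE M21 on GRCm38, with the codons of an NPxY or NPxF signal in capitals (asparagine, proline, any residue, then tyrosine or phenylalanine). The last 250 codons of each receptor were searched on the coding strand.
Lrp2-201, codon 4524: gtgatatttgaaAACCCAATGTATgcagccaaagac
Lrp2-201, codon 4603: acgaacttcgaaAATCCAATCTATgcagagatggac
Amn-201, codon 410: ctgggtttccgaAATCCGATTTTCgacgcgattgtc
Amn-201, codon 447: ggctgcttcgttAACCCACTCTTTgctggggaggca
The Lrp2 signals begin at the codons counted 137 and 58 from the end, at chr2:69430293-69430328 and at chr2:69425798-69426000, both on the minus strand, and the latter stretch is split by an intron. The Amn signals begin at those counted 49 and 12 from the end, at chr12:111275879-111275914 and chr12:111276079-111276114 on the plus strand. Among 21505 protein-coding genes, each read in its longest complete coding sequence, 3.33% held at least 1 such signal in the same stretch and 0.205% held 2 or more. Cubn also held 2 in that stretch, although cubilin has no tail inside the cell, so a match of letters is not by itself an adaptor site. Fcgrt held 0.

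Dab2 carries the partner signals on the clathrin side. In transcript Dab2-202 the codons for aspartate, proline and phenylalanine, a signal that binds the AP-2 complex, occurred at codons 293 and 298, and both lie in a 654-base optional exon at chr15:6429296-6429949.
Dab2-202, codon 293: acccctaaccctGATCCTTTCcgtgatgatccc
Dab2-202, codon 298: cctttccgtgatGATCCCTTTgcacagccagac
Capitals mark the signal. Of the same 21505 genes, 4.57% had 1 or more of these and 0.279% had 2 or more. The exon adds 218 codons, and the proteins with and without it are known as the long p96 form and the short p67 form of Dab2. The next lines show what separates the forms in the RNA, with the 30 bases before the junction in lower case and the 30 bases after it in capitals.
Dab2-202, into the long exon: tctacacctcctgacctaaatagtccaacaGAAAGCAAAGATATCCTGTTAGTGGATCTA
Dab2-203, past the long exon: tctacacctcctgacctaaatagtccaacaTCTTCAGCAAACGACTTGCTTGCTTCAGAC
Dab2-204, into the long exon: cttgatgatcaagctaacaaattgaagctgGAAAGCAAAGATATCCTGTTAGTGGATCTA
Dab2-211, past the long exon: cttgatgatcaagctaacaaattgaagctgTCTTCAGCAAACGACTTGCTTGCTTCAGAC
Dab2-202 and Dab2-203 enter the junction from a 63-base exon of 21 codons at chr15:6424635-6424697, which Dab2-204 and Dab2-211 leave out.

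Levels are in TPM, each library's transcript abundances corrected for length and scaled to a common total, so members can be compared with each other. They fell into a high pair, a middle and a low gene, and one gene at the edge of detection. Fcgrt averaged 46.6 ± 3.01 TPM (SD, n = 2), Dab2 41.1 ± 5.69, Amn 14.4 ± 3.29, Cubn 4.82 ± 1.01 and Lrp2 1.11 ± 0.191. Fcgrt and Dab2 were not separated by their spread, because the lower Fcgrt value lay below the higher Dab2 value. Every other neighbouring pair in this order was separated in both libraries. At a threshold of TPM 1 or more in both libraries, 4 of the 5 were detected, and Lrp2 was not, since it fell just under the threshold in replicate 1. Of 21461 nuclear protein-coding genes, 61.3% met the same threshold.

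**Figure D1:**
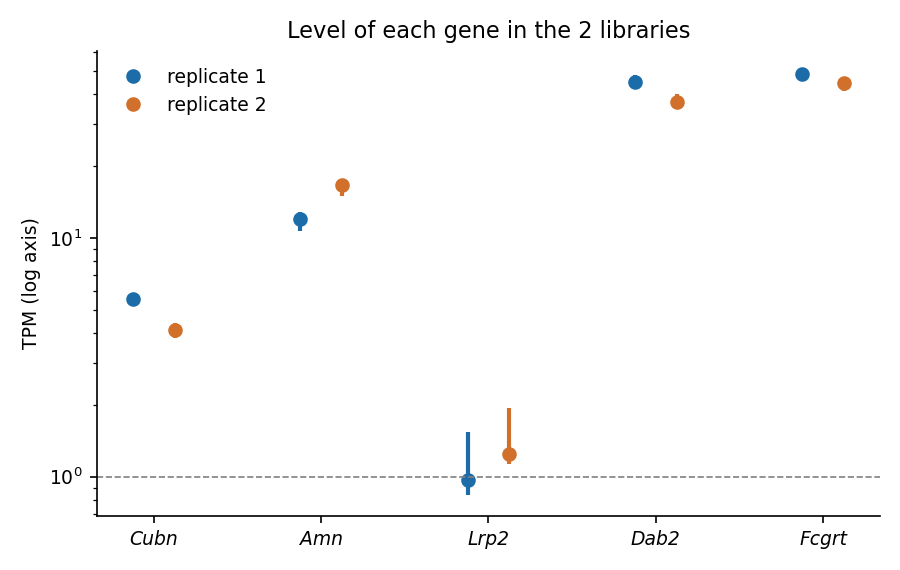
TPM of the 5 genes (log axis), with a point for each library, its deposited interval as the vertical bar (hidden by the point where narrow) and a dashed line at TPM 1. Fcgrt and Dab2 lie near 40 to 50, Amn and Cubn lower, and Lrp2 around the detection threshold of TPM 1.

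The libraries were close in depth, with 34504419 and 34042802 estimated counts over all features and 15395 and 15400 genes at TPM 1 or more. Pearson's r between them was 0.979 across 15989 genes, which are not independent replicates. They were treated as separate libraries, because counts of 19401 genes gave a chi-square that was 14.2 times its degrees of freedom. All 7 epithelial markers were detected, and summed to 1783 and 1928 TPM in replicates 1 and 2. Pancreatic markers stood apart, with 3.70 TPM in replicate 1 and 952 TPM in replicate 2.

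Cubn, the ligand-binding chain of the cubilin receptor (ENSMUSG00000026726.10, chr2:13276338-13491813, minus strand), was low. It stood at 5.53 TPM in replicate 1, with a deposited interval of 5.17 to 5.84, and at 4.10 TPM in replicate 2, with an interval of 3.81 to 4.41. The higher library was thus replicate 1, and the intervals did not overlap. Its level was above that of 49.9% of all protein-coding genes but of only 19.9% of those with a mean of at least 1 TPM, so it sat near the bottom of the expressed range. Because the Cubn transcript is very long, the low TPM still rested on many reads, 1431 estimated counts in replicate 1 and 1072 in replicate 2. The full-length transcript Cubn-201, of 3623 codons in 67 exons, took 99.6% of the gene's TPM in replicate 1 and 99.5% in replicate 2. Gm13270, a gene on the opposite strand, overlaps Cubn over 49490 bases and stood at 0.36 and 0.43 TPM, with 17.6 and 22.5 counts. The strand setting of the counting is not given in the sources used here, so reads of these overlapping genes may not be told apart.

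Amn, the membrane anchor of cubilin (ENSMUSG00000021278.6, chr12:111271095-111276426, plus strand), was present at a higher level than Cubn in both libraries. It stood at 12.1 TPM in replicate 1, with an interval of 10.7 to 12.9, and at 16.7 TPM in replicate 2, with an interval of 15.1 to 17.6. Replicate 2 was the higher library here, in contrast to Cubn, and again the intervals lay apart. The reads were fewer than for Cubn, 444 and 622 counts, since the transcript is short. The level was above that of 44.1% of the protein-coding genes with a mean of at least 1 TPM, close to their median of 17.8 TPM. Amn-201, of 458 codons, is its only transcript in the tables.

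The receptor's chains were not at equal levels of RNA. Amn exceeded Cubn 2.18-fold in replicate 1 and 4.07-fold in replicate 2 (mean 3.13 ± 1.34, n = 2). The anchor was in excess both times, while the size of the excess differed 1.87-fold between libraries, Cubn being higher in replicate 1 and Amn in replicate 2. No test of this difference is possible with 1 group of 2.

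Lrp2, which encodes megalin (ENSMUSG00000027070.10, chr2:69424340-69586065, minus strand), was the lowest of the 5. It stood at 0.97 TPM in replicate 1, with an interval of 0.842 to 1.54, and at 1.24 TPM in replicate 2, with an interval of 1.13 to 1.94. The intervals overlapped, and both libraries lay near the detection threshold. The counts, 256 and 388, were not near 0, because the transcript is very long. Only 1.06% of the protein-coding genes with a mean of at least 1 TPM lay below it. Cubn exceeded Lrp2 5.70-fold in replicate 1 and 3.31-fold in replicate 2, and Dab2 exceeded it 46.5-fold and 29.9-fold.

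The Lrp2 total included short models that bear on this value. The full-length transcript Lrp2-201, of 4660 codons in 79 exons, took 66.4% of the gene's TPM in replicate 1 and 82.3% in replicate 2. By posterior mean TPM its share was 54.4% and 67.1%, and Lrp2-204, a noncoding model at 0 TPM in both libraries, then held 14.1% and 14.6%. Lrp2-201 stood at 0.64 TPM in replicate 1 and 1.02 TPM in replicate 2. Its intervals, 0.539 to 0.718 and 0.887 to 1.10, did not overlap. Thus the full-length transcript was higher in replicate 2, although the gene's intervals overlapped. Among 41263 transcripts with a mean of at least 0.5 TPM, 3.12% had intervals apart and were higher in replicate 2, and 6.64% in replicate 1. Lrp2-203, of 1363 codons, held 21.2% and 13.7% of the gene's TPM on 20.4 and 17.0 counts. Lrp2-202, of 426 codons, held 12.3% and 4.04% on 5.92 and 2.51 counts. Both short models thus took large shares from few reads. Lrp2-201 held 230 and 369 counts, which were most of the gene's reads.

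Dab2, the adaptor (ENSMUSG00000022150.12, chr15:6299788-6440712, plus strand), was well expressed. It stood at 45.1 TPM in replicate 1, with an interval of 42.8 to 48.3, and at 37.1 TPM in replicate 2, with an interval of 35.1 to 40.2. Replicate 1 was higher, and the intervals were apart, on 3109 and 2630 counts. Dab2 lay above 73.0% of the protein-coding genes with a mean of at least 1 TPM. It exceeded Cubn 8.16-fold in replicate 1 and 9.04-fold in replicate 2, and was above Amn and Lrp2 in both. Lrp1, of the LDL receptor family, was above Dab2, at 75.6 TPM in replicate 1 and 71.6 TPM in replicate 2. Dab2 is also known from macrophages, endothelium and mesenchyme. The summed markers of these cell types were 168 and 170 TPM for macrophages (7 of 7 detected), 276 and 275 TPM for endothelium (8 of 9) and 4714 and 4380 TPM for mesenchyme and smooth muscle (8 of 8). Their part in the Dab2 level was not tested. In bulk tissue, fewer cells of a type and less RNA per cell cannot be told apart.

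The 14 annotated Dab2 transcripts divided the gene's TPM unevenly, and 4 of them were at 0 in both libraries. Dab2-202, of 766 codons, contains both optional exons shown above and led, with 26.6% of the gene's TPM in replicate 1 and 27.4% in replicate 2. Dab2-204, of 745 codons, which lacks only the short optional exon, followed with 22.8% and 21.1%. These are the transcripts of the long form. Dab2-203, of 548 codons, held 10.2% and 11.5%, and Dab2-211, of 527 codons, held 4.53% and 6.73%. These lack the long exon, and with it both AP-2 signals.

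Taking the 5 full-length transcripts together, those with the long exon summed to 22.3 TPM in replicate 1 and 18.0 TPM in replicate 2. They formed 74.0% and 68.2% of the full-length total (71.1 ± 4.08, n = 2). The long form was therefore the larger class in both libraries. The 63-base exon was present in 59.1% and 60.9% of the full-length total. Its share varied less between libraries than that of the long exon. Deposited intervals of single Dab2 transcripts were wide, for Dab2-203 0.657 to 6.35 TPM in replicate 1, so the split among similar transcripts is less certain than the gene's total.

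**Figure D2:**
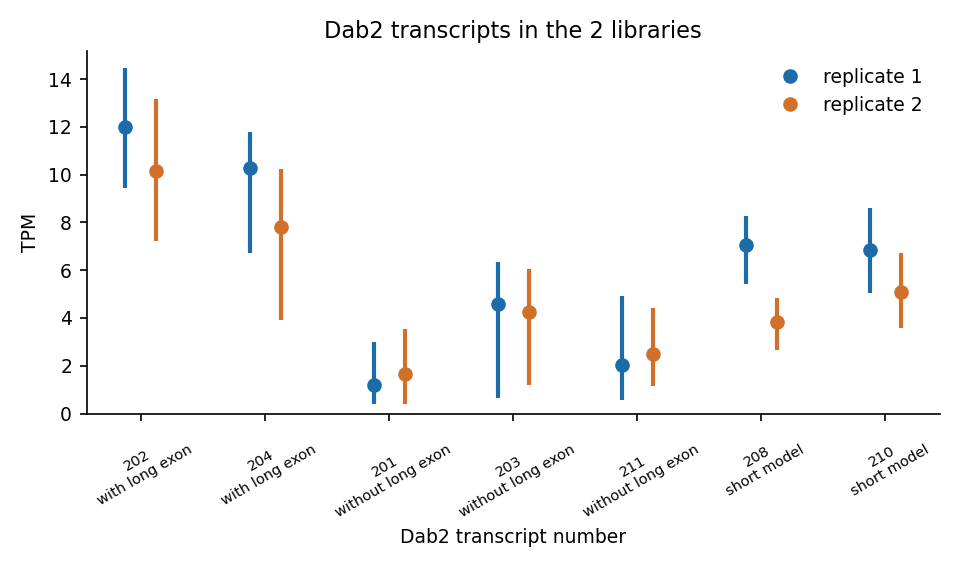
TPM of 7 Dab2 transcripts, by transcript number, with a point for each library and the deposited interval as a bar. The full-length transcripts with the 654-base exon, 202 and 204, have the highest values in both libraries.

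Short Dab2 models also took reads. Dab2-208, a model of 236 codons, stood at 7.06 TPM in replicate 1 and 3.82 TPM in replicate 2, with intervals of 5.44 to 8.29 and 2.68 to 4.83 that did not overlap. Its share of the gene was 15.7% and 10.3%. Dab2-210, a retained-intron model with no coding sequence, held 15.2% and 13.8%. In all, the 9 short or incomplete models made up 33.2% of the gene's TPM in replicate 1 and 28.8% in replicate 2, on models whose few reads are divided by short lengths.

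Full-length Dab2 transcripts start at 2 sites, 86810 bases apart. Those from the downstream site made up 96.1% of the full-length TPM in replicate 1 and 93.8% in replicate 2. The upstream site was used by Dab2-201 alone, at 1.19 and 1.64 TPM. The sequences that precede the sites, from RefSeq's promoter table on GRCm38.p6, are shown because the sites differ so much in use. CG pairs are in capitals, and each line ends at the base before the start site, on the plus strand.
Dab2 upstream start, chr15:6299539-6299787: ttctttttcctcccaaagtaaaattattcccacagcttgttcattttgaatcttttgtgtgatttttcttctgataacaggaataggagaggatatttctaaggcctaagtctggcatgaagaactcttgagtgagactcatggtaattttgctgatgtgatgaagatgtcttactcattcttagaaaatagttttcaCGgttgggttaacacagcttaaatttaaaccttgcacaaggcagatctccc
Dab2 downstream start, chr15:6386498-6386597: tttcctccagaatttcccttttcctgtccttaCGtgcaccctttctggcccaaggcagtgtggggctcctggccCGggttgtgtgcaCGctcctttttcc
Over RefSeq's whole window of 300 bases, the upstream start had 2 CG pairs and 37.7% G and C, and 14.1% of 32851 promoters had fewer CG pairs. The downstream start had 19 CG pairs and 59.3% G and C, and 71.9% of promoters had fewer. The median promoter had 7 CG pairs. These windows run past the start sites into transcribed bases. The stretches printed above held 1 CG pair in 249 bases for the upstream start and 3 in 100 bases for the downstream start. Over the whole window the more used region was thus the richer in CG pairs, which is a description of sequence only.

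The receptor genes had promoters of both kinds. Lrp2, the lowest member, had 20 CG pairs in its window and Amn 15, while Cubn and Fcgrt had 5 each. Dab2, as given above, had 19 at its downstream start and 2 at its upstream start. By CG pairs the members thus ranked otherwise than by RNA, where Fcgrt was the highest. Whether CG pairs bear on these levels was not tested.

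Fcgrt, which encodes the heavy chain of the neonatal Fc receptor (ENSMUSG00000003420.7, chr7:45092990-45103851, minus strand), had the highest mean level of the 5. It stood at 48.7 TPM in replicate 1, with an interval of 45.4 to 49.7, and at 44.4 TPM in replicate 2, with an interval of 41.3 to 45.4. These intervals overlapped narrowly, on 1854 and 1711 counts. Fcgrt lay above 75.9% of the protein-coding genes with a mean of at least 1 TPM. In this bulk tissue, the part of epithelium, endothelium, macrophages or other cell types in the Fcgrt level was not tested. Fcgrt-201, of 365 codons, is its only transcript in the tables. Its partner chain B2m stood at 251 TPM in replicate 1 and 260 TPM in replicate 2, which was 5.15-fold and 5.84-fold above Fcgrt. B2m also serves the class I antigen-presenting proteins, so its excess is not specific to this receptor.

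**Figure D3:**
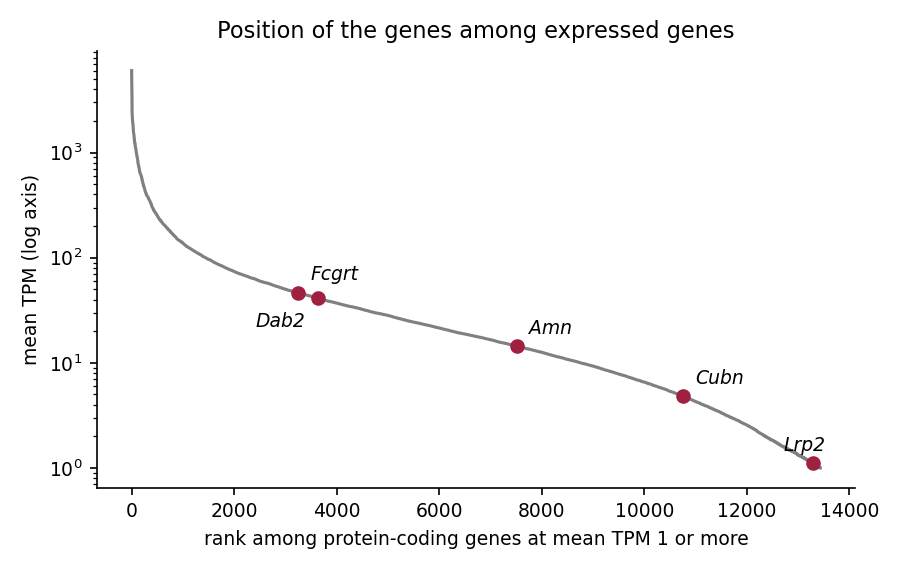
Mean TPM (log axis) against rank for the 13433 protein-coding genes with a mean of at least 1 TPM, with the 5 receptors and adaptor marked. Fcgrt and Dab2 sit in the upper part of the curve, Amn near the median of expressed genes, Cubn low on it, and Lrp2 at its foot.

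The genes nearest in level, among 112 other genes of the endocytic pathway and over the 2 libraries, were of varied kinds. Likeness was measured as the distance between log2(TPM + 1) values. Cubn was nearest to Lrp3 (5.76 and 5.15 TPM, distance 0.27) and Amn to Hip1r, a clathrin-binding protein (16.2 and 18.0 TPM, distance 0.41). Lrp2 was nearest to Apom, an apolipoprotein (0.75 and 1.21 TPM, distance 0.17). Fcgrt was nearest to Rab25, a small GTPase of epithelial recycling endosomes (45.0 and 44.5 TPM, distance 0.11).

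The differences between libraries were read against all genes. A rule asked for a mean of at least 5 TPM, log2(TPM + 1) apart by at least 1 and intervals apart. Only 3 members, Amn, Dab2 and Fcgrt, reached that mean, and 0 of them differed, against 0.495% of the 11324 genes that reached it, or 56 genes. Cubn and Lrp2 were below the mean the rule needs, and without that minimum 0 of the 5 members differed, against 116 of all 43346 genes. By intervals alone, Cubn and Dab2 were higher in replicate 1 and Amn in replicate 2. Among 13433 protein-coding genes with a mean of at least 1 TPM, 15.9% had intervals apart with replicate 1 higher and 7.23% with replicate 2 higher. Those intervals cover the estimate within 1 library and not the spread between libraries, so lying apart was common.

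On the log2(TPM + 1) scale, replicate 2 minus replicate 1, the difference was 0.44 for Amn, 0.19 for Lrp2, -0.13 for Fcgrt, -0.28 for Dab2 and -0.36 for Cubn. Of 7672 genes between 5 and 50 TPM, 95% differed by at most 0.38 in size, so Amn lay outside that range, and Dab2 and Fcgrt inside it. Of 2757 genes between 1 and 5 TPM, 95% differed by at most 0.62, which takes in Cubn and Lrp2. Cubn, at a mean of 4.82 TPM, sat near the top of that range, and its -0.36 was just inside the 0.38 of the range above. With a pseudocount of 0.1 the Lrp2 difference was 0.32. As shares of gene counts, replicate 2 over replicate 1, the ratios were 1.43 for Amn (95% exact interval 1.26 to 1.61), 1.54 for Lrp2 (1.31 to 1.81) and 0.939 for Fcgrt (0.879 to 1.003). They were 0.861 for Dab2 (0.817 to 0.907) and 0.762 for Cubn (0.704 to 0.826). Counting error alone thus left 1 inside the interval for Fcgrt only, and these intervals cover no variation between animals or libraries. The Lrp2 ratio was larger by counts than by TPM, 1.28, because TPM divides by an effective length, which for Lrp2 was 11371 bases in replicate 1 and 13309 bases in replicate 2, where the full-length transcript had the larger share.

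**Figure D4:**
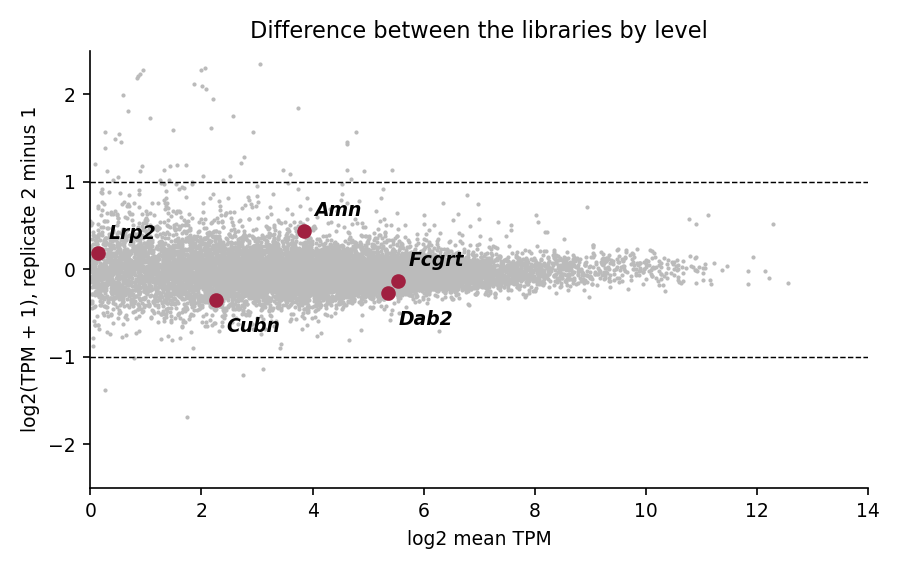
Difference in log2(TPM + 1), replicate 2 minus replicate 1, against log2 mean TPM for 13433 protein-coding genes, with the 5 members in red and dashed lines at 1 and -1. All 5 members lie between the lines, and 40 genes lie beyond the vertical axis.

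Markers of other tissues that use these receptors were examined beside them. Of 11 kidney tubule and glomerulus markers, 0 were detected in both libraries and 6 were at 0 counts in both, with sums of 0.52 TPM in replicate 1 and 1.29 TPM in replicate 2. A count of 0 still allows up to 3 counts in a library. Of the sum in replicate 2, the podocyte gene Nphs1 gave 1.07 TPM. Of 5 visceral endoderm and yolk sac markers, 4 were detected, with sums of 160 and 189 TPM. Nearly all of that came from S100g, a calcium-binding protein that intestine also makes (130 and 165 TPM), and from Afp (24.9 and 17.3 TPM). S100g was higher in replicate 2 and Afp in replicate 1. Of the other markers, Soat2 (2.38 and 3.65 TPM) and Spp2 (0.16 and 0.70 TPM) were higher in replicate 2. Rhox5 was nearly level (3.10 and 3.08 TPM). The pancreatic markers were far higher in replicate 2, led by Pnliprp1 (1.67 and 355 TPM), Ctrb1 (0 and 300 TPM) and Ins2 (0 and 155 TPM). The part of these tissues in the differences of Amn, Cubn, Lrp2 and Dab2 was not tested.

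Of the 112 genes in 9 lists of endocytic and related genes, 101 were detected in both libraries, against 61.3% of all protein-coding genes. The lists with the most genes undetected were the receptor ligands, with 10 of 15 detected, and the Fc and immunoglobulin receptors, with 3 of 7. The median level of the 112 genes was 26.2 TPM, against 4.88 TPM for all protein-coding genes. For protein-coding genes with a mean of at least 1 TPM the median was 17.8 TPM. Of the 96 with a mean of at least 5 TPM, 1 differed between libraries by the rule above, against 0.495% of all genes at that mean. No list was tested as a set.

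Among the other LDL receptor family genes, 11 of 12 were detected, with a median of 7.25 TPM. Lrp1, the broad scavenger receptor of mesenchyme and macrophages, was highest, at 75.6 and 71.6 TPM, followed by Lrp10 (27.9 and 34.0 TPM). Lrp2 therefore stood low in its family, and Lrp1 exceeded it 77.9-fold in replicate 1 and 57.7-fold in replicate 2. The gene not detected was Lrp1b, at 0.85 and 0.69 TPM.

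All 11 receptor partners and cargo adaptors were detected, with a median of 18.5 TPM. Besides B2m, the highest were Gipc1, a scaffold that binds the tails of megalin and other receptors (122 and 123 TPM), and Lrpap1, the chaperone of LDL receptor family proteins (97.4 and 86.7 TPM). The chaperone exceeded its client Lrp2 by 100.4-fold in replicate 1 and 69.9-fold in replicate 2, though it also serves Lrp1 and others.

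Downstream of the receptors, all 18 clathrin coat genes, all 12 endosomal sorting genes and all 18 lysosomal genes were detected. Their medians were 39.1, 46.8 and 66.8 TPM, in that order. The coat list was led by Ap2m1 and Ap2s1, the medium and small subunits of AP-2 (394 and 361 TPM, and 214 and 200.3 TPM), and by the clathrin light chain Clta (184 and 188 TPM). Rab11a (281 and 291 TPM) and Rab11b (205 and 163 TPM), GTPases of recycling, and Rab7 (217 and 201 TPM), of late endosomes, led endosomal sorting. Cd63 (526 and 536 TPM) and Lamp1 (240.5 and 247 TPM), proteins of the lysosomal membrane, and Ctsd, cathepsin D (195.7 and 195.65 TPM), led the lysosomal list. These are machinery genes of nearly every cell, and each of the 3 medians exceeded the levels of Cubn, Amn and Lrp2.

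**Figure D5:**
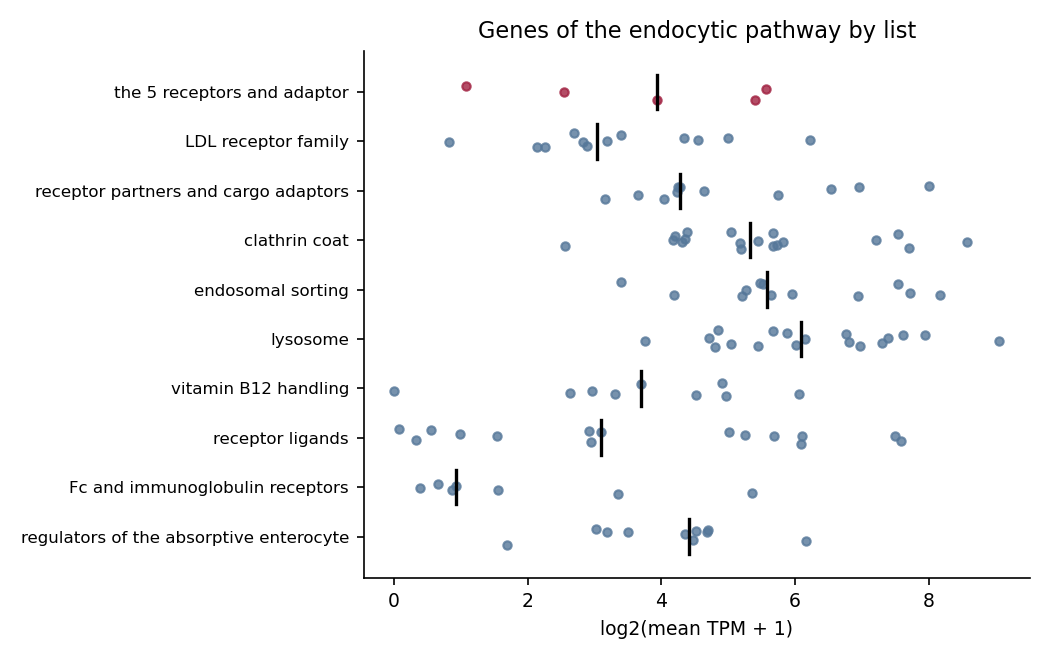
Level of each gene, as log2(mean TPM + 1), in the endocytic lists and among the 5 members (red), with a point for each gene and a vertical bar at the median. The clathrin, endosomal and lysosomal lists have medians from 39.1 to 66.8 TPM, while the Fc receptor list has a median of 0.905 TPM.

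Of the vitamin B12 genes, which handle the classical cargo of cubilin, 8 of 9 were detected. Cd320, the receptor for transcobalamin, stood at 62.7 and 68.8 TPM, Tcn2, transcobalamin itself, at 30.8 and 29.7 TPM, and Mut, a mitochondrial B12-dependent mutase, at 29.4 and 28.5 TPM. Gif, intrinsic factor, the ligand that cubilin binds in the adult ileum, was at 0 counts in both libraries. RNA of cubilin and its anchor was thus measured beside no reads of that ligand's gene, while RNA of Cd320 and Tcn2 was present. These values cover RNA of this tissue only, and do not measure protein or ligand made in other tissues.

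Of 15 genes for other ligands of megalin and cubilin, 10 were detected, with a median of 7.59 TPM. Apoe (177 and 181 TPM), Apoa1, a cubilin ligand (161 and 220 TPM), and Rbp4, the retinol carrier (74.1 and 62.1 TPM), were highest. Gc, the vitamin D-binding protein carried by megalin and cubilin, was the 1 list gene that differed between libraries, at 0.18 TPM in replicate 1 and 14.99 TPM in replicate 2. It was higher in the library with the pancreatic markers, and their part in it was not tested. Alb, albumin, a main cargo of cubilin, stood at 0.82 and 0.13 TPM. Gc and Alb were singled out after their values were seen.

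The other Fc and immunoglobulin receptors were mostly near or below detection, with 3 of 7 detected and a median of 0.905 TPM. The detected ones were Fcer1g, the shared signalling chain (37.0 and 43.3 TPM), Fcgr3 (9.99 and 8.39 TPM) and Fcgr1 (2.20 and 1.69 TPM), all known from macrophages. Fcgr2b (0.93 and 0.88 TPM) and Fcgr4 (0.82 and 0.85 TPM) were just under the threshold. Pigr, which carries IgA across mature epithelium, was at 0.56 and 0.59 TPM, and Trim21, the cytosolic antibody receptor, at 0.21 and 0.41 TPM. Fcgrt was thus above every gene of this list in both libraries. In replicate 2 its lead over Fcer1g was small, and their intervals overlapped (41.3 to 45.4 TPM for Fcgrt, 39.1 to 46.1 TPM for Fcer1g).

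Lastly, 10 of 10 regulators of the absorptive and suckling enterocyte were detected, with a median of 20.4 TPM. Hnf4a, a nuclear receptor of gut epithelium, stood at 70.3 and 70.5 TPM, Gata4, a factor of proximal intestine, at 21.2 and 28.8 TPM, and Pllp, which acts in endosome maturation of absorptive enterocytes, at 23.6 and 25.8 TPM. These genes were named by level, and their values describe the tissue in which the receptors were measured.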

How the data were processed

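Total RNA was sequenced from 2 libraries of 1 group. Per the file headers and deposited notes, reads were assigned per library to GENCODE M4 on mm10. The deposited gene and transcript tables give the expected count, the TPM, a posterior mean TPM, interval bounds (treated as a score, since their level is not stated) and the percent of a gene's TPM in each transcript. The tool that made them, with its version and strand setting, was not given in the sources used here. TPM was computed by the authors over all features, spike-ins included, which held 9.77% and 10.4% of it.

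Symbols and coordinates came from GENCODE M21 on the same assembly, and 42462 of 43346 identifiers matched without their version. A pseudocount of 1 was used for log2 values. Scripts ran in Python 3.11.15 with pandas 2.3.3, numpy 2.4.6 and scipy 1.17.1. The difference rule was tried on simulated data, where the planted changes and the levels of their genes lay above its minimums. The simulated spread was set and not taken from these libraries. How the rule performs near its minimums, or in these libraries, was therefore not measured. Exact (Clopper-Pearson) intervals, at 95% and on rounded counts, and the floor of 3 counts cover counting error only. Named genes were the 5 members, the 3 highest of each list, list genes under TPM 1 where a list had at most 4, the nearest gene in level, and transcripts with a share of at least 5%. Some genes that this rule names are not reported here. A few others were named as examples: Dab2-201, Nphs1, Gc and Alb. The members and lists were chosen with earlier results of these data known. Other thresholds, units, scalings and single libraries were tried. Genes overlapping a member that had no row in the tables were not analysed here.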

Additional observations from a re-analysis of the deposited data

How the results depend on the processing

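With 2 libraries of 1 group, the spread has 1 degree of freedom, and no difference can be formed without either replicate. No paired analysis was possible because there is only 1 group. The number of members detected, 4 at TPM 1, was 5 at TPM 0.5, at 10 counts, by posterior mean TPM and without replicate 1, 3 at TPM 5, and 4 without replicate 2, so the Lrp2 call depends on the threshold. Of 21461 nuclear protein-coding genes, 13160 were detected at TPM 1, 13969 at TPM 0.5, 14784 at 10 counts and 10464 at TPM 5. They numbered 13438 by posterior mean TPM, 13456 without replicate 1 and 13349 without replicate 2. The list genes detected ranged from 94 to 107, against 101. No member's difference changed sign in 20 recomputations. The members differing numbered 3 of 5 with no minimum fold and no filter, a setting chosen after seeing the data, against 0 of the 3 that the rule covered. Of all 43346 genes, 116 differed with no filter on mean TPM and 3462 with no minimum fold and no filter, against 56 of 11324 by the rule. The 43346 include genes below TPM 1. Rescaling over protein-coding genes raised Cubn from 4.82 to 6.30 TPM and Lrp2 from 1.11 to 1.45 TPM, with like shifts for the others. Lrp2 was 1.32 TPM by posterior mean. By posterior mean, 5 transcript shares moved by more than their spread, averaged over both libraries: Lrp2-201 from 74.4% to 60.8%, Cubn-201 from 99.5% to 97.3%, Dab2-202 from 27.0% to 26.4%, Dab2-203 from 10.8% to 9.16% and Dab2-204 from 22.0% to 19.5%.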
